A study of Rattus norvegicus with 4 samples.

Results

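The genes described here encode chaperones of the endoplasmic reticulum (ER) and regulators of the unfolded protein response (UPR): Hspa5, Hsp90b1, Pdia3, Pdia4, Calr, Dnajb9, Dnajc3, Xbp1, Herpud1 and Atf6. They were taken from a fixed list of 10 symbols, and all 10 were found, by 12 probe sets, among the 12783 single-gene probe sets of the day 1 array design and the 7564 of the day 3 design. Of the 10 genes, 9 are on the day 1 design and 1, Atf6, is on the day 3 design, so no member has a value on both days.

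The study infused 300 mM 3-nitropropionic acid (3-NP), an irreversible inhibitor of succinate dehydrogenase in the mitochondrial respiratory chain, at the round window of the left ear of female Sprague-Dawley rats of 8 to 10 weeks and 180 to 210 g, and compared it with infusion of saline. The groups were 3-NP at day 1, saline at day 1, 3-NP at day 3 and saline at day 3, with 1 array each and no further allele or agent in the labels. Per the labels, all groups shared the anaesthesia, opening of the bulla, gelatin plug and destruction of the right cochlea. The tissue was cochlear lateral wall, which the labels describe both as the upper basal turn and as the second turn dissected free of stria vascularis. The number of ears pooled for an array is not stated. With 1 array a group no difference has a replicate check, so no p-value is given. In bulk tissue, fewer cells of a type and less RNA per cell cannot be told apart.

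Proteins that enter the secretory pathway fold in the ER with the help of chaperones, lectins and disulfide isomerases that work in a calcium-rich, oxidising lumen. When unfolded proteins build up, membrane sensors of the UPR are activated: ATF6 is cut in the Golgi to release a transcription factor, IRE1 splices the Xbp1 mRNA, and PERK phosphorylates a translation initiation factor, which lowers protein synthesis and favours translation of ATF4. The ATF6 and XBP1 factors act with NF-Y on ER stress response elements (ERSE) in the promoters of chaperone genes. The spiral ligament, which makes up most of the lateral wall, consists of fibrocytes in a collagen-rich matrix, secreted proteins that are folded by this machinery. Arrays of this kind measure total mRNA, not the spliced form of Xbp1 nor the cut form of ATF6.

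The promoters of the members are shown because most of them carry the element through which ER stress acts on chaperone genes. RefSeq (build GRCr8) gave the stretch from 250 bases before to 50 bases after the gene start for 8 of the 10 genes. Positions are counted from the gene start, with -1 as the last base before it. The ERSE was searched as CCAAT, 9 bases of any kind and CCACG, and ERSE-II as ATTGG, 1 base of any kind and CCACG, on both strands. An exact ERSE was present in 5 members and an ERSE-II in 1, Herpud1. Over all 33469 promoters of that length the shares were 0.0657% for ERSE and 0.0508% for ERSE-II. The Hspa5 promoter up to the gene start (GRCr8 chr3:38452766-38453015, plus strand) reads as follows, with its ERSE (-43 to -25) and a match to the core of the UPR element that binds ATF6 and XBP1, searched as TGACGTG and 1 base of any kind (-135 to -128), in capitals.
Hspa5: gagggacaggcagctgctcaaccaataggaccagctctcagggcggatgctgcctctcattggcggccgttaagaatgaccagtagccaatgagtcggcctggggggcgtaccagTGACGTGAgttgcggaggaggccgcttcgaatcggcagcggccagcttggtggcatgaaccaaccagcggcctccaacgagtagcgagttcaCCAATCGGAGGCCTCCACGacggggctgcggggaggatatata

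This core of 8 bases was found in 1 member, Hspa5, and in 1.79% of all promoters. The elements of the other 5 members are set out for comparison, in the direction of the gene, with the element in capitals. ERSE and ERSE-II share the letters CCACG, and the matches listed here did not overlap each other. The windows are chr7:23012431-23012489 (minus strand) and chr7:23012327-23012385 (minus) for the 2 elements of Hsp90b1, chr19:40213117-40213173 (plus) for Calr, chr15:102432514-102432572 (plus) for Dnajc3, chr14:84604538-84604596 (plus) for Xbp1 and chr19:10614801-10614851 (minus) for Herpud1, all in GRCr8.
Hsp90b1 distal ERSE: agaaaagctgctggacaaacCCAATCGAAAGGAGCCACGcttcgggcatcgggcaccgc
Hsp90b1 proximal ERSE, opposite strand: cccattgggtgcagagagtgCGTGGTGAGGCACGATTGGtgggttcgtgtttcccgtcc
Calr ERSE, opposite strand: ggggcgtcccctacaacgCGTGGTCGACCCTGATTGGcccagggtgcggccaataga
Dnajc3 ERSE: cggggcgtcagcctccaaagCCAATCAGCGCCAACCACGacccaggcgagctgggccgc
Xbp1 ERSE: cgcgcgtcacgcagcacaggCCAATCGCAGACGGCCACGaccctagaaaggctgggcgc
Herpud1 ERSE-II: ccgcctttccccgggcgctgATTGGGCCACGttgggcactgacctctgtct

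The promoters of Pdia4 and Dnajb9 held none of these 3 patterns, which says only that these letters are not in this window. Pdia3 and Atf6 are named only.

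At day 1 the 9 members on that design stayed within 2-fold of saline. The cochaperone genes Dnajc3 and Dnajb9 stood highest, at 1.46-fold and 1.39-fold relative to the median gene. The main chaperone genes Hspa5 and Hsp90b1 lay close to the median gene, and Herpud1, a gene of ER-associated degradation, stood lowest. Across the 6533 genes that passed a filter on dim signals, the median signal ratio of 3-NP over saline was 1.36-fold as deposited, a log2 ratio of 0.44. Ratios are therefore given relative to that median gene, which assumes that it was equal in both arrays. For each member the as-deposited log2 ratio of its brightest probe set is also given. For other genes it is given in part, and at day 1 it lies 0.44 above the relative log2 ratio. A gene was counted as higher or lower when its relative log2 ratio was at least 1 in size.

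Relative to the median gene, 0 of the 9 members were at least 2-fold higher in 3-NP and 0 were at least 2-fold lower, against 7.76% and 6.47% of all genes tested. As deposited the counts were also 0 and 0, against 17.9% and 2.62% of all genes. At a threshold of 1.5-fold relative to the median gene they stayed at 0 and 0, against 17.1% and 16.6%. The median relative log2 ratio was 0.15 over the 9 members, with a range from -0.52 to 0.54, and 0 over all genes by construction. All 9 passed the filter with signals above the floor (the 30th percentile of each array) in both arrays, so none of these ratios is a bound. The middle 50% of all genes lay between -0.40 and 0.41, and 6 of the 9 members were within that range.

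**Figure D1:**
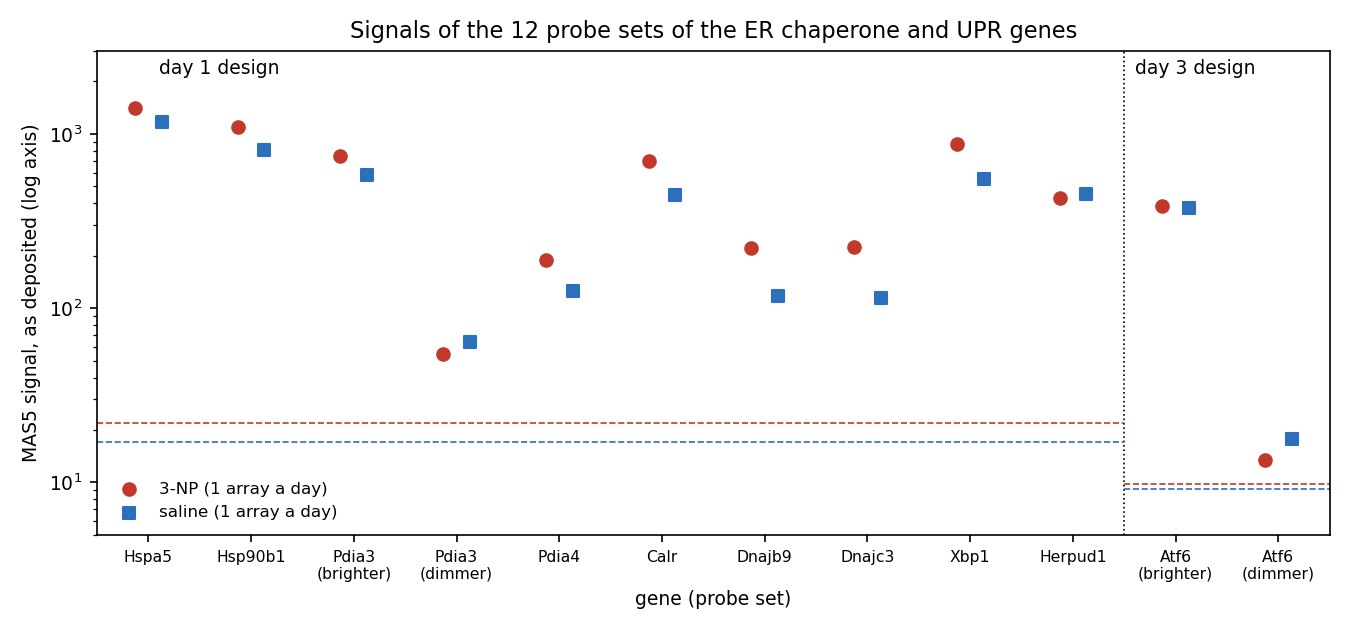
MAS5 signal as deposited (log axis) for each of the 12 probe sets, with circles for the 3-NP array and squares for the saline array of the same day; dashed lines mark the floor of each array and the dotted line parts the day 1 from the day 3 design. At day 1 the 3-NP circle lies above the saline square for all but Herpud1 and the dimmer Pdia3 probe set, and levels of different probe sets cannot be compared.

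Xbp1 encodes the transcription factor whose mRNA is spliced by IRE1. Its probe set had a signal of 877 in 3-NP and 552 in saline at day 1. The relative log2 ratio was 0.23 (0.67 as deposited), so 3-NP was higher on both scales and under 2-fold on both. A higher ratio was found for 34.9% of all genes.

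Hspa5 encodes BiP, the ER member of the HSP70 family, which binds unfolded chains and holds the UPR sensors inactive. Its signal was 1409 in 3-NP and 1172 in saline at day 1. The relative log2 ratio was -0.17, and it turned to 0.27 as deposited. Hsp90b1 encodes GRP94, the ER member of the HSP90 family, which folds integrins and Toll-like receptors. It had 1100 in 3-NP and 812 in saline, with a relative log2 ratio of -0.001 (0.44 as deposited). Of all genes, 50.1% had a higher ratio than Hsp90b1 and 61.1% a higher ratio than Hspa5, so both chaperone genes were near the middle of the array pair.

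Dnajb9 and Dnajc3 encode J-domain cochaperones that stimulate the ATPase of BiP. Dnajb9 (ERdj4) also returns IRE1 to its inactive form and assists degradation, and it had a signal of 221 in 3-NP and 117 in saline. Its relative log2 ratio was 0.48 (0.92 as deposited), which is 1.39-fold. Dnajc3 encodes p58IPK, an inhibitor of the kinase PERK. Its signal was 226 in 3-NP and 114 in saline, a relative log2 ratio of 0.54 (0.98 as deposited), or 1.46-fold. These were the 2 highest of the 9 ratios, with a higher ratio seen for 21.6% of all genes in the case of Dnajb9 and 18.4% for Dnajc3.

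Calr encodes calreticulin, a calcium-binding lectin that holds glycoproteins during folding. Its signal was 699 in 3-NP and 448 in saline, a relative log2 ratio of 0.20 (0.64 as deposited). Pdia4 encodes ERp72, a disulfide isomerase. It had 190 in 3-NP and 126 in saline, with a relative log2 ratio of 0.15 (0.59 as deposited). Both genes were slightly above the median gene, and the ratio between them differed by less than the spread of a probe set given further on.

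Pdia3 encodes ERp57, the disulfide isomerase that works with calreticulin and calnexin, and it is the only member with a pair of probe sets on the day 1 design. The brighter had a signal of 746 in 3-NP and 582 in saline, with a relative log2 ratio of -0.08 that turned to 0.36 as deposited. The dimmer had 54.6 in 3-NP and 64.2 in saline, a relative log2 ratio of -0.67 (-0.23 as deposited). The probe sets thus lay 0.59 apart on the log2 scale and on opposite sides as deposited. A gap larger than this was found in 20.7% of the 744 genes with several probe sets above the filter.

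Herpud1 encodes an ER membrane protein with a ubiquitin-like domain that organises the ubiquitin ligase complex of ER-associated degradation. Its signal was 427 in 3-NP and 452 in saline. It was the only member whose 3-NP signal was below saline as deposited by its brightest probe set, with a log2 ratio of -0.08, whereas 8 members were above. Among all genes 76.9% were above saline as deposited. The relative log2 ratio of Herpud1 was -0.52, which is 1.44-fold lower, and 80.9% of all genes had a higher ratio.

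**Figure D2:**
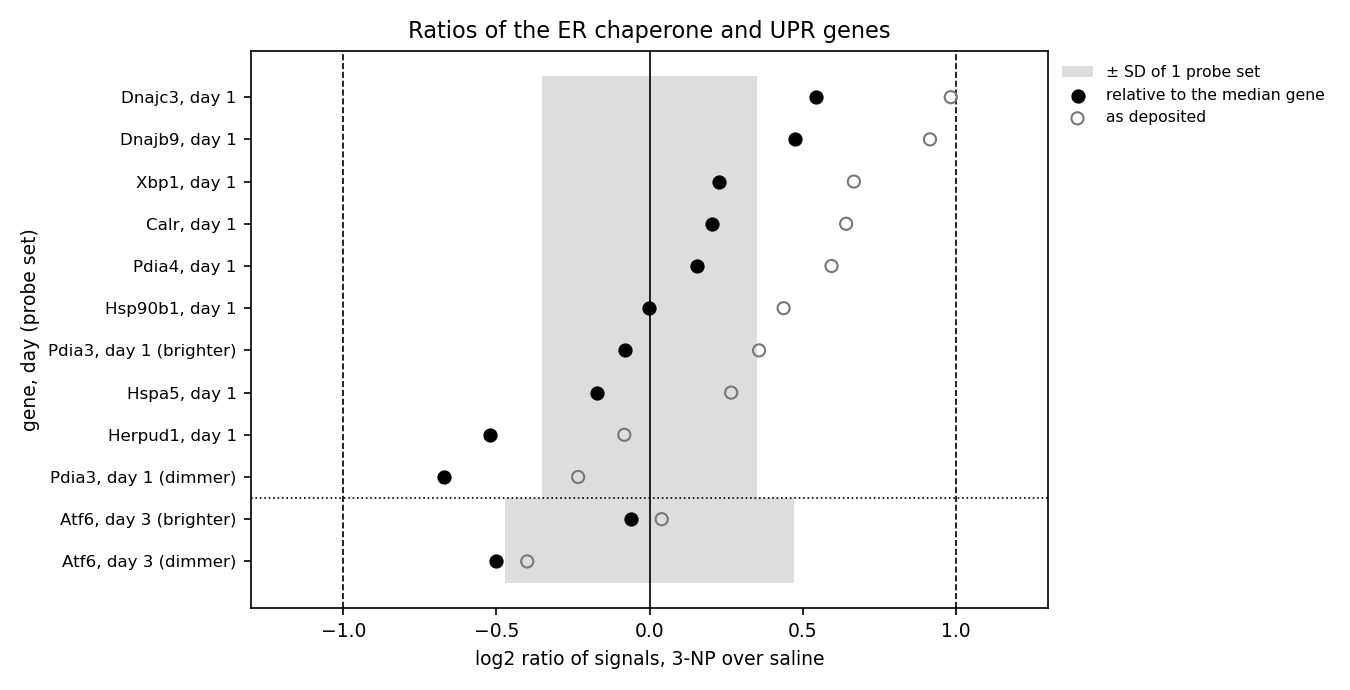
Log2 ratio of signals, 3-NP over saline, for each probe set, with filled points relative to the median gene of the day and open points as deposited; the grey band is ± 1 SD of the ratio of one probe set on that design and the dashed lines mark 2-fold. No point passes 2-fold, and among the filled points Dnajc3, Dnajb9, Herpud1 and the dimmer Pdia3 probe set lie outside the band at day 1.

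The spread of a measurement could be judged only from genes with several probe sets, where the brightest was set against the next. On the day 1 design this gave an SD of 0.35 per probe set for the log2 ratio. It covers the disagreement of probe sets on the same pair of arrays, and not hybridisations, animals or dissections. By this measure 6 of the 9 members were within 1 SD of the median gene, as were 44.6% of all genes, and 3 were further away, namely Dnajc3, Dnajb9 and Herpud1. From highest to lowest the order of relative ratios was Dnajc3, Dnajb9, Xbp1, Calr, Pdia4, Hsp90b1, Pdia3, Hspa5 and Herpud1. No 2 neighbours in this order were more than 0.35 apart, less than the SD of 0.50 for a difference of 2 such ratios.

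Differences between members within the array pair do not depend on the scaling to the median gene. Of the 36 pairs of members, 11 differed by more than that SD of 0.50. The pairs share members, and gaps beyond 1 SD often arise from the disagreement of probe sets alone. The share among pairs of all genes was not computed, so this count does not set the members apart from one another. The widest gap, between Dnajc3 and Herpud1, was 1.07 on the log2 scale, a 2.09-fold difference between their ratios. Dnajc3 and Hspa5, the cochaperone and its partner chaperone, differed by 0.72, and Dnajb9 and Hspa5 by 0.65. These are differences between single arrays and carry no replicate error.

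Atf6 encodes the sensor that is cut to release a transcription factor, and it was measured at day 3 only. The brighter of its 2 probe sets had a signal of 384 in 3-NP and 374 in saline. The relative log2 ratio was -0.06 and turned to 0.04 as deposited, with the median gene at 0.10. The SD per probe set was 0.47 on this design, over 805 genes. The dimmer probe set, which did not pass the filter, had 13.5 in 3-NP and 17.9 in saline, a relative log2 ratio of -0.50. At day 3, 9.21% of the 3972 genes tested were at least 2-fold higher and 8.18% at least 2-fold lower, and Atf6 was neither. It was neither at 1.5-fold too, where the shares of all genes were 19.1% and 19.9%.

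Around the 10 members, 8 further lists with 214 genes of the ER and its stress responses were examined, of which 162 passed the filter at day 1. Outside the list of the PERK arm and the integrated stress response, 1 of 149 genes was at least 2-fold higher and 5 were lower. Among the lower genes, Txndc11 and Creb3l1 passed the filter only through the saline array, where they are high. The lower count is therefore no support for a difference. The shares over all genes relative to the median gene were 7.76% and 6.47%. As deposited the counts were 13 and 2, against 17.9% and 2.62% of all genes. In the PERK list 5 of 13 were higher and 0 lower, or 8 and 0 as deposited, with the same shares over all genes. Of these 5, Cebpb, Atf3 and Trib3 passed the filter only through the 3-NP array, where they are high, so the count is no support for a difference of the list. With a filter on the mean of both arrays, chosen after seeing the data, 3 of 11 were higher (Atf4, Cebpb and Ppp1r15a) and 0 lower, against 402 higher and 336 lower of 6092 genes in all. Cebpb, at the floor in saline, passed this filter too through its high 3-NP signal, so this count is no support either.

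Among 37 other chaperones and foldases, 0 were higher and 3 lower (5 and 1 as deposited). Their median relative log2 ratio was -0.11 and turned to 0.33 as deposited. Lrpap1, which encodes the receptor-associated protein that chaperones LDL receptor family members such as megalin, had 155 in 3-NP and 367 in saline, a relative log2 ratio of -1.69, and -1.63 by another probe set. Fkbp9, a prolyl isomerase gene, had 722 in 3-NP and 1271 in saline, a ratio of -1.25, but -0.82 as deposited. Txndc11 had 28.9 in 3-NP and 46.1 in saline, a ratio of -1.11, which came under 2-fold as deposited (-0.68), after lowess (-0.99) and with a floor at the 40th percentile (-0.73). It passed the filter only through the saline array. At the other end lay 5 genes, named after their values were seen and all past 2-fold as deposited. The thioredoxin-fold gene Txndc12 was at 0.97 (1.41 as deposited), the ER oxidase gene Ero1a at 0.87 (1.31) and Txndc5 at 0.69 (1.13). Dnajb11 was at 0.61 (1.05) and P4hb, which encodes protein disulfide isomerase, at 0.60 (1.04). The list thus went both ways, with 13 genes above and 24 below the median gene.

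Collagen folding genes had 0 of 13 higher and 0 lower, and their median was -0.04 (0.40 as deposited). The furthest was Plod3, a lysyl hydroxylase gene, with 310 in 3-NP and 117 in saline and a relative log2 ratio of 0.97. It passed 2-fold when centred on the spike-ins (1.04), on all probe sets (1.01) or with no filter (1.04), and as deposited (1.41). Ppib, which encodes cyclophilin B, was at -0.22 (0.22 as deposited).

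Of 24 genes of ER-associated degradation, the process in which Herpud1 acts, 1 was higher and 0 lower. The higher gene was Ube2j1, a ubiquitin-conjugating enzyme of the ER membrane, with 142 in 3-NP and 51.6 in saline and a relative log2 ratio of 1.03. Vcp, the ATPase that extracts proteins from the ER membrane, had 1184 in 3-NP and 732 in saline, a ratio of 0.25. The median over the 24 genes was 0.21, with 15 above and 9 below the median gene, so Herpud1 at -0.52 stood below the middle of the list. It was not alone there, since Os9 (-0.73), Sel1l (-0.59) and Erlec1 (-0.55), named after their values were seen, stood lower still. Os9 and Sel1l passed the filter only through the saline array.

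Among 10 UPR sensors and ER stress factors, 0 were higher and 1 was lower, with a median of -0.25 (0.19 as deposited). The lower gene was Creb3l1, which encodes OASIS, a cut transcription factor related to ATF6 that acts in collagen secretion. Its signal was 42.4 in 3-NP and 74.8 in saline, a ratio of -1.26 (-0.82 as deposited). Creb3l1 passed the filter only through the saline array. Eif2ak3, which encodes PERK, had 66.8 in 3-NP and 58.9 in saline and a relative log2 ratio of -0.26 (0.18 as deposited). Tmbim6, an ER membrane gene, was at -0.21 (0.23 as deposited).

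Of the genes of the PERK arm and integrated stress response, Atf4 and Ppp1r15a were at least 2-fold higher and reached the median signal in both arrays. Atf4, the transcription factor gene of this arm, had 3009 in 3-NP and 731 in saline at day 1, a relative log2 ratio of 1.60. Ppp1r15a, with 581 in 3-NP and 121 in saline, the gene of the phosphatase subunit GADD34, was at 1.83. Trib3 was at 1.09, with signals of 83.8 in 3-NP and 29.1 in saline. Its dimmer probe sets, below the filter, gave 0.01 and, at the floor in 3-NP, a bound of -0.69. Cebpb, at the floor in saline, was at least 10.0-fold higher, and Atf3, also at the floor in saline, at least 4.54-fold. Ddit3, which encodes CHOP, was at 0.64 (1.08 as deposited). The list median was 0.87 with the reported filter and 0.64 with that on the mean of both arrays. The latter filter still kept Cebpb through its 3-NP signal. The median of the 9 members was 0.15 under both filters, and no replicate check is possible.

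Translocon, signal peptidase and oligosaccharyltransferase genes had 0 of 32 higher and 0 lower, with Spcs1 at 0.01 and Sec62, the furthest from 0, at -0.76 (-0.34 by another probe set). Their median of -0.10 turned to 0.34 as deposited. Genes of ER to Golgi transport had 0 of 27 higher and 0 lower, with a median of -0.16 (0.28 as deposited). In that list Sar1a was at -0.12 (0.32 as deposited) and 0.52 by another probe set, and Surf4 at 0.68 (1.12 as deposited) but -0.29 by another probe set. Of 6 ER calcium genes 1 was lower, Itpr1, an inositol trisphosphate receptor gene, with 180 in 3-NP and 449 in saline and a relative log2 ratio of -1.76. Atp2a2, which encodes the calcium pump SERCA2, was at 0.70 (1.14 as deposited) by its brightest probe set, and its next 2 gave 0.24 and 0.25. The median over the 6 was -0.28 (0.15 as deposited).

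**Figure D3:**
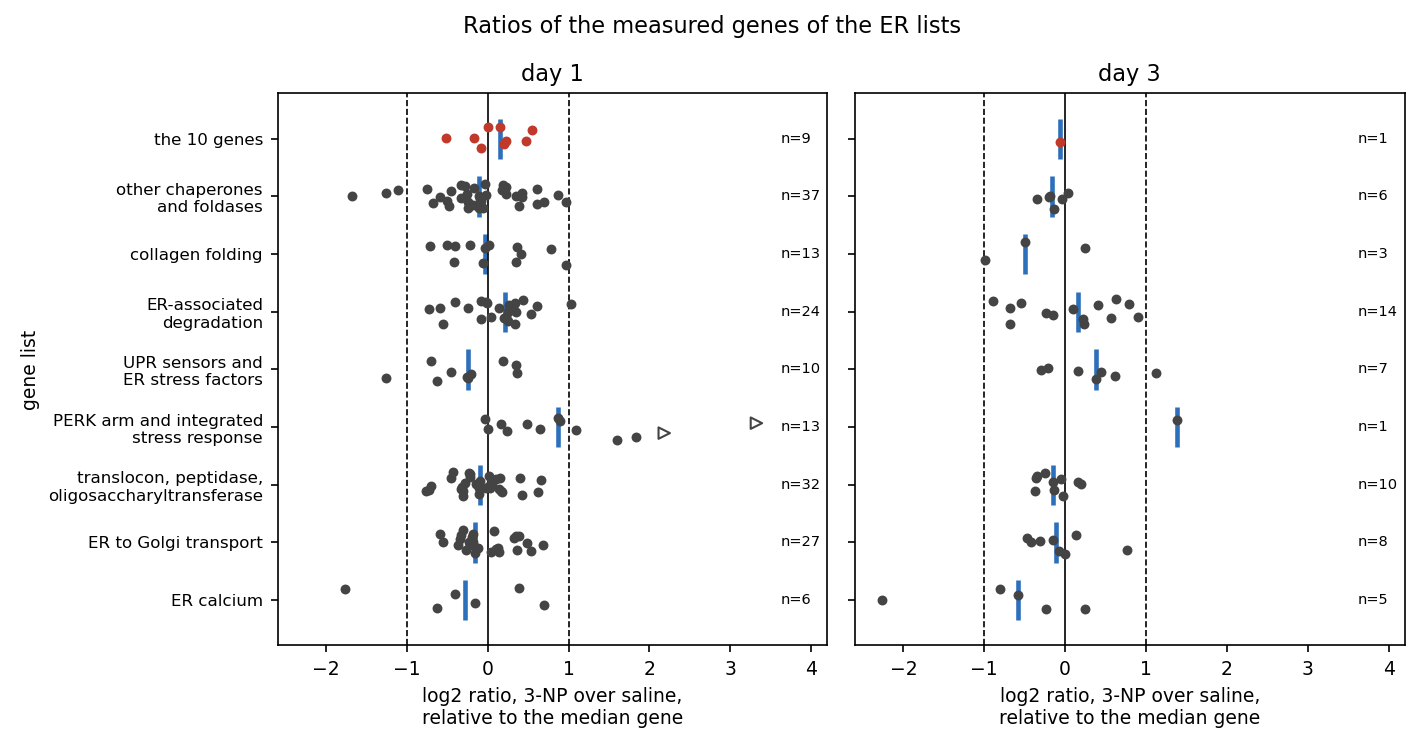
Log2 ratio of 3-NP over saline relative to the median gene, for each measured gene (point) of the 10 genes described here and of 8 further ER lists, at day 1 (left) and day 3 (right); the vertical bar is the list median, dashed lines mark 2-fold and open triangles are lower bounds with saline at the floor. At day 1 the PERK list has a median of 0.87, which includes 3 genes that passed the filter through the 3-NP array alone, and the other list medians lie between -0.28 and 0.21.

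The 5 chaperone and foldase genes outside the members whose promoters hold an ERSE or ERSE-II were picked by the motif after their values were seen. They were Dnajb11, a BiP cochaperone gene (0.61), Creld2 (0.23), the BiP exchange factor gene Hyou1 (0.17), the calnexin gene Canx (-0.24) and the oxidase gene Ero1b (-0.24). Dnajc3, Xbp1, Calr, Hsp90b1, Hspa5 and Herpud1, the members shown above with such an element, ranged from -0.52 to 0.54. Over the whole day 1 design, 13 genes outside the members had either element and passed the filter. Their median was 0.17, with 1 at least 2-fold higher and 0 lower, against 416 higher and 349 lower of 5506 genes with neither. At day 3 there were 6 such genes, with a median of 0.57 and 0 at least 2-fold apart. The 3273 genes with neither had a median of -0.02, with 8.68% at least 2-fold higher and 8.31% lower. The median of 0.57 rests on 6 genes of 1 array pair, where the SD per probe set was 0.47. A difference by element was not tested. None of the 13 promoters of the PERK list that were in the table held either element.

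At day 3 the ER lists were measured in part, with 54 genes above the filter, of which 2 were at least 2-fold higher and 1 lower, against 9.21% and 8.18% of all genes. The higher genes were Sesn2 of the integrated stress response, with 157 in 3-NP and 56.0 in saline (1.38, and a bound of 0.30 by a dimmer probe set at the floor in saline), and Creb3l3, a liver and gut transcription factor gene related to ATF6, with 47.8 in 3-NP and 20.5 in saline (1.12). The lower gene was Ryr3, a ryanodine receptor gene, with 19.2 in 3-NP and 86.2 in saline (-2.27). Ryr3 passed the filter only through the saline array, where it is high, so its call is no support for a difference. Of 14 genes of ER-associated degradation 0 were higher or lower, with a median of 0.16, Ube2g2 at 0.90 (past 2-fold when centred on the spike-ins) and Vcp at 0.63. Medians were -0.16 for 6 chaperones and foldases, with Tmx4 at -0.35 and Fkbp2 at -0.18 (0.23 by another probe set), and -0.15 for 10 translocon and related genes, with Srp72 at -0.37 and Srp14 at -0.14.

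The median at day 3 was -0.11 for 8 transport genes, with Tmed9 at 0.77 and Sar1a at -0.01 (0.09 as deposited), and 0.38 for 7 sensors and factors, with Yy1 at 0.44. It was -0.49 for 3 collagen folding genes. There P4ha3 was 1.99-fold lower, and past 2-fold after lowess (-1.03) and quantile normalization (-1.02), while its dimmer probe set had both signals at the floor. The brighter probe set passed the filter only through the saline array. P3h4 was at -0.49 by its brightest probe set, and its others lay between -0.74 and 0.12. For 5 calcium genes the median was -0.58, with Stim2 at that value.

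On both designs, by different probe sets, 35 genes of these lists were measured, and for 25 both days fell to one side of the median gene. That is 71.4% of them, against 71.6% of the 1246 genes measured on both days in all. The degradation genes Sel1l (-0.59 at day 1 and -0.89 at day 3), Erlec1 (-0.55 and -0.54), Nploc4 (0.53 and 0.56) and Vcp (0.25 and 0.63) were chosen after their values were seen. None of the 35 was 2-fold apart on both days, and the days are not compared as levels because each has its own array design.

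Cell type markers differed between the day 1 arrays as well. For comparison, 7.76% of all genes at day 1 were at least 2-fold higher and 6.47% lower, or 17.9% and 2.62% as deposited. At day 3 the shares relative to the median gene were 9.21% and 8.18%. Of 14 spiral ligament fibrocyte markers 10 passed the filter, 6 of them at least 2-fold lower in 3-NP (4 as deposited). Their summed signal was 9380 in 3-NP and 15579 in saline, and sums here are as deposited, not centred on the median gene. Stria vascularis and melanocyte markers, from a layer that a label describes as removed, had 6 of 8 lower (2 as deposited). Their sums over the 9 genes on the array were 2823 in 3-NP and 4729 in saline. Bone and cartilage markers were lower for 8 of 10 (4 as deposited), and Col10a1 and Sost were at the floor in both arrays. Of these 8, Ibsp, Omd, Acan and Chad passed the filter only through the saline array, where they are high. That count is therefore no support for a difference. Over the 14 genes on the array the sums were 5714 in 3-NP and 8273 in saline. Of 6 macrophage markers above the filter 2 were higher, with sums of 1336 in 3-NP and 413 in saline over 9 genes, while Aif1, Itgam and Ptprc were at the floor in both arrays. Without Lgals3 (736 in 3-NP and 97.9 in saline) the sums were 600.0 in 3-NP and 315 in saline, and Csf1r at -0.06 and C1qa at 0.13 were close to the median gene. At day 3, by other genes, 2 of 2 macrophage markers above the filter were lower (0 as deposited), Mrc1 at -1.08 and Cd163 at -1.07. Cd163 passed only through the saline array, where it is high, so this count is no support for a difference. Among 5 endothelial and mural markers at day 1, relative to the median gene, 3 lay at least 2-fold higher and Rgs5 lower. Of these 3, Plvap and Mcam were at the floor in saline, so their ratios are bounds. Both passed the filter only through the 3-NP array, where they are high, so the count is no support for a difference. Rgs5 passed only through the saline array, where it is high, so its call is no support either. Kdr, with 213 in 3-NP and 51.4 in saline, was at 1.61. Pecam1 (-0.23), Pdgfrb (0.11) and Cspg4 (-0.36) did not pass the filter. As deposited 4 of the 5 were higher and 0 lower. Over the 8 such genes on the array the summed signal was 776 in 3-NP and 358 in saline. Skeletal muscle markers had 0 of 4 higher (2 as deposited), all above the median gene, with a median of 0.40. Neutrophil markers above the filter at day 1 were S100a8 at -0.65 and S100a9 at 0.34. Of the lymphocyte markers 1 passed the filter at day 1, Cd3g at -0.98, with 38.6 in 3-NP and 56.1 in saline. Plasma cell markers were measured at day 3 only, where Mzb1 was at 0.30 and Tnfrsf17 at -0.44. As a check of the labelled tissue, Coch, the fibrocyte gene of cochlin, had 5677 in 3-NP and 6548 in saline on the day 3 arrays (-0.31). Of 4 fibrocyte markers above the filter at day 3, 2 were at least 2-fold lower on both scales, Tbx18 (-1.19) and Slc4a11 (-1.11). The median of these 4 was -0.71, with 1 above the median gene. Of 5 stria vascularis and melanocyte markers at day 3, 3 were at least 2-fold lower on both scales, and Tyrp1, at the floor in saline, was higher. Tyrp1 passed the filter only through the 3-NP array, and Bsnd, among the 3 lower, only through the saline array. Each is high in that array, so these counts are no support for a difference. The part of cell composition in the ratios of the ER genes was not tested.

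**Figure D4:**
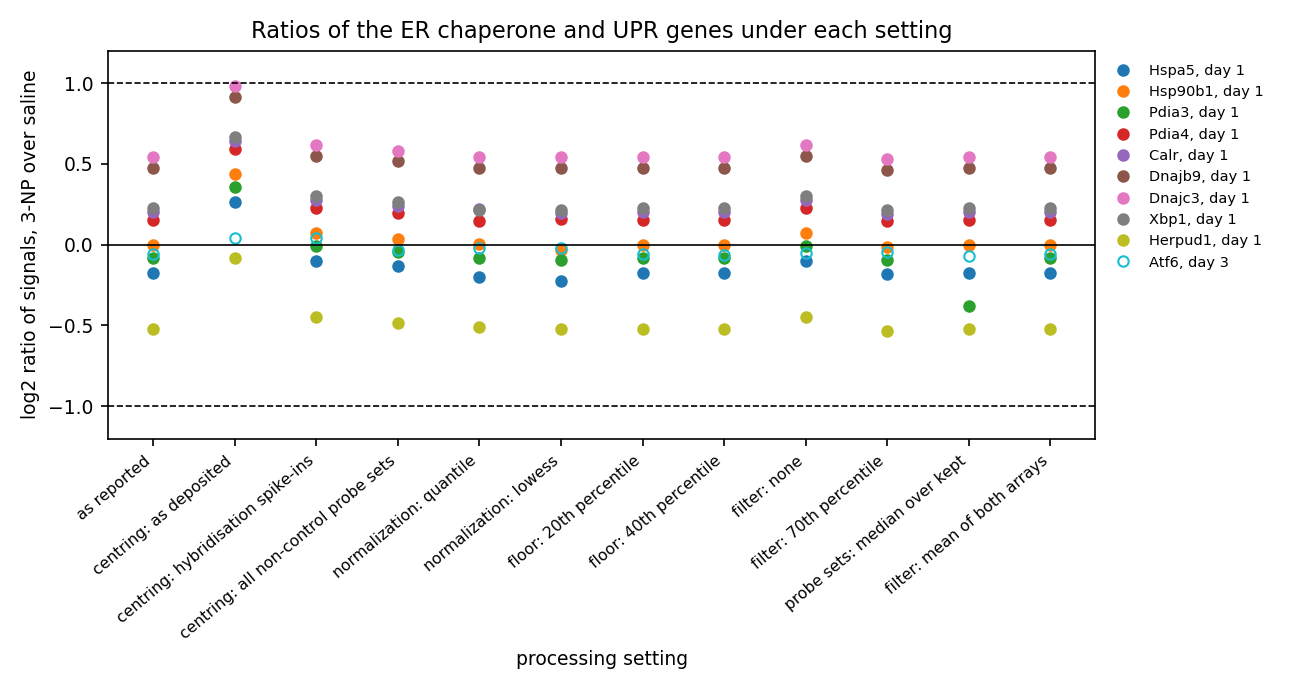
Log2 ratio of 3-NP over saline for each of the 10 genes (by its brightest probe set, Atf6 open because it is from day 3) under the reported setting and 11 alternatives; dashed lines mark 2-fold. Every value lies inside 2-fold, the as-deposited setting raises the day 1 genes together, and the median over probe sets moves Pdia3 to -0.38.

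Over the centred settings Dnajc3 ranged from 0.53 to 0.62, Dnajb9 from 0.46 to 0.55 and Herpud1 from -0.53 to -0.45. Hsp90b1 ranged from -0.03 to 0.07, across 0, and Hspa5 from -0.23 to -0.10. The settings are those plotted for the 10 genes, and they share the same arrays, so their agreement carries no replicate error.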

How the data were processed

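Per the labels' protocols, cRNA carrying biotin was made from 6 µg of total RNA for Affymetrix arrays. The deposited values are linear MAS5 signal intensities, 1 per probe set, per the submitters' processing notes. No source used here states the scaling target, the detection calls or a build. Each day has its own array design, with 15923 probe sets at day 1 and 15333 at day 3. Median signals were 60.7 in 3-NP and 44.9 in saline at day 1, and 20.0 in 3-NP and 18.7 in saline at day 3. For the 18 spike-in probe sets the median log2 ratio was 0.36 at day 1 and -0.001 at day 3. Actb control signals were 2.53 to 3.22 times higher at the 3' than at the 5' end. For Gapdh the same ratio was 1.17 to 1.46. The number of arrays limits the precision.

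Gene names came from the platform table and were brought up to date with RefSeq (GRCr8). Signals below the 30th percentile of an array were raised to it, a floor of 22.0 in 3-NP and 17.1 in saline at day 1, and 9.83 in 3-NP and 9.21 in saline at day 3. A probe set was kept where it reached the 50th percentile in at least 1 array of the pair. The brightest kept probe set by mean log2 signal stood for its gene, and log2 ratios were centred on the median gene of the day (Python 3.11.15, pandas 2.3.3, numpy 2.4.6). The calculation was tested on simulated data. Alternatives changed the centring, normalization, floor, filter, choice of probe set and fold threshold. A filter on the mean of both arrays was added after seeing the data.

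The members and lists were chosen with earlier results of these data known. In each list the genes named were those at least 2-fold apart, or else the furthest from 0, with the brightest gene, plus Eif2ak3, Atf4 and Ddit3. A few further genes, single cell type markers among them, were named after their values were seen.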

Additional observations from a re-analysis of the deposited data

How the results depend on the processing

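Each group has 1 array, so no setting adds a replicate. No paired analysis was possible because the groups compared share fewer than 2 replicate numbers. The counts of members at least 2-fold higher or lower were 0 under every setting run, on both days. They were also 0 at a threshold of 1.5-fold, which was run relative to the median gene only. Centred on the spike-ins, Dnajc3 passed 1.5-fold (0.62). As deposited, Pdia4 (1.51-fold), Calr (1.56), Xbp1 (1.59), Dnajb9 (1.89) and Dnajc3 (1.98) passed it at day 1. The share of all genes past 1.5-fold as deposited was not computed. The members' median at day 1 was 0.59 as deposited, against 0.15 relative to the median gene, and that of the pathway genes 0.41, against -0.03. Counts of pathway genes at day 1, 6 higher and 5 lower as reported, became 21 and 2 as deposited, 21 and 18 at 1.5-fold, and 3 lower with the filter at the 70th percentile. Over all genes the day 1 shares were 17.9% and 2.62% as deposited, and 17.1% and 16.6% at 1.5-fold. At day 3 the counts, 2 higher and 1 lower, became 7 and 6 at 1.5-fold, and 2 lower after quantile normalization, after lowess, and with the median over probe sets, each time through P4ha3. In the PERK list the 5 higher genes at day 1 became 3 with the filter at the 70th percentile or on the mean of both arrays, which left fewer genes tested. No named gene that was 2-fold apart changed sign under the settings run. Dim probe sets, such as the second of Pdia3 and of Atf6, are the least certain here, since detection calls were not used.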
